A study of Mus musculus with 6 samples.

Results

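The expression of 10 osteoclast genes was followed through 6 RNA-seq libraries of cultured fetal thymic stroma, 4 of which had been exposed to RANKL. They were *Nfatc1*, *Oscar*, *Itgb3*, *Calcr*, *Dcstamp*, *Ocstamp*, *Atp6v0d2*, *Acp5*, *Ctsk* and *Mmp9*, chosen as genes that mark osteoclast differentiation and found by their symbols, 1 entry each, for 10 of the 22513 gene entries in the expression table. The question was whether RANKL, the cytokine that drives osteoclast formation, raised these genes in the myeloid cells that remain in thymic lobes depleted of haematopoietic cells. RANKL raised *Atp6v0d2*, *Mmp9*, *Ctsk* and *Itgb3*, though the calls of *Ctsk* and *Itgb3* were lost when either unstimulated library was left out. *Nfatc1* and *Acp5* were expressed with and without RANKL and did not pass the test. *Oscar*, *Calcr*, *Dcstamp* and *Ocstamp* were under 1 FPKM in every library.

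Osteoclasts are large multinucleated cells of the monocyte and macrophage lineage that dissolve bone. They form when RANKL, encoded by *Tnfsf11*, binds its receptor RANK, encoded by *Tnfrsf11a*, on precursors kept alive by M-CSF, and osteoprotegerin, encoded by *Tnfrsf11b*, blocks this by capturing RANKL. RANK signalling through NF-kB and AP-1, together with receptors that signal through immunoreceptor motifs, switches on the transcription factor NFATc1, which turns on genes for cell fusion, acid secretion and matrix digestion. In the thymus the same cytokine acts on epithelial cells and is known for the maturation of medullary thymic epithelial cells (mTECs), the cells that express *Aire*.

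All 6 libraries were made from fetal thymus organ cultures of C57BL/6 background that had been treated for 4 days with 2-deoxyguanosine (2-DG), which kills thymocytes and other haematopoietic cells. WT lobes without RANKL and Jmjd6-/- lobes without RANKL gave 1 library each, and WT and Jmjd6-/- lobes stimulated with RANKL for 4 days gave 2 libraries each. Jmjd6 is a nuclear dioxygenase, and its deletion was in the whole embryo, not in 1 cell type. The submitters named the repeated libraries technical duplicates and the methods of the study called them samples, so p-values here measure only the spread between libraries. A field of the sample labels gave RANKL for every sample, and the groups were taken from the titles and from the field that separates stimulated from unstimulated cultures.

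Depth, estimated from the steps between low values, ran from about 14900000 to about 30200000 fragments a library, and a value of 0 was read as allowing up to 3 fragments. *Jmjd6* stood at 1.32 to 1.96 FPKM in the 3 libraries labelled Jmjd6-/- and at 25.9 to 32.5 FPKM in the 3 labelled WT. *Aire* stood at 0.142 and 0.473 FPKM without RANKL and at 67.1 to 79.7 FPKM in the 4 RANKL libraries, so both labels fitted their libraries. Myeloid transcripts were still present after 2-DG. *Csf1r*, the M-CSF receptor, was at 7.58 to 14.8 FPKM, *Spi1*, encoding the myeloid factor PU.1, at 7.05 to 12.9 FPKM and *Cd68*, a macrophage lysosomal protein, at 25.2 to 40.4 FPKM over the 6 libraries. In bulk libraries such as these, fewer cells of a type and less RNA per cell cannot be told apart.

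With RANKL, 4 of the 10 osteoclast genes rose (10.5% of all 15894 genes tested rose) and none fell (4.11% of all genes fell), by limma over all genes with Benjamini-Hochberg adjustment at 0.05. All 10 passed the filter of a mean of 0.1 FPKM, but *Calcr* and *Dcstamp* did so only through the RANKL libraries, so values over the 10 are partly fixed by the filter. At an unadjusted p under 0.05 from limma, 4 of the other 8 were higher and 0 of the 10 lower. Of all 15894 genes tested, 4722 had such a p in either direction. The median log2 change of the 8 without *Calcr* and *Dcstamp* was 0.56 and that of all 10 was 1.2, against -0.02 over all genes tested. With 1 FPKM added in place of 0.1, the median of the 10 was 0.23. In 6 of the 10 all 4 RANKL libraries lay above both unstimulated libraries (18.9% of all genes), in 1 they lay below (18.5%), and in 3 they overlapped. *Calcr* and *Dcstamp* are among the 6. An exact permutation test of 4 libraries against 2 cannot give a two-sided p under 0.133, and of 2 against 2 none under 0.333, so single levels were not tested that way. Left out in turn, the libraries moved the count of rising genes between 2 and 5, and it was 2 without either unstimulated library. It was also 2 without the filter on low values, where *Ctsk* (adjusted p = 0.0611 from limma) and *Itgb3* (0.0931) did not pass. With only the genes at 0 in all libraries dropped, an alternative chosen after seeing the data, the count was 6. There *Ctsk* (0.00828) and *Itgb3* (0.0297) passed.

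**Figure D1:**
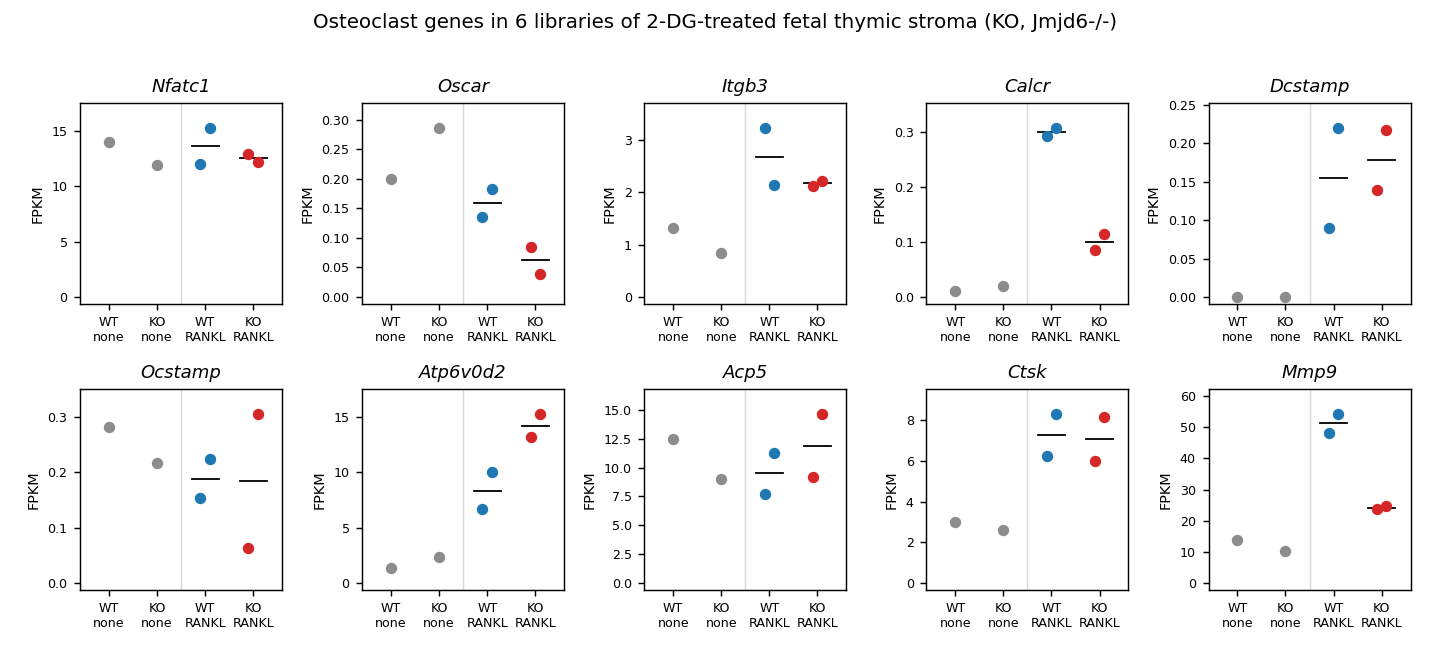
FPKM (vertical axis, linear, from 0) of the 10 osteoclast genes in the 6 libraries, by genotype and stimulation (horizontal axis). Each point is 1 library, KO stands for Jmjd6-/-, and black bars are means of 2 RANKL libraries. *Atp6v0d2*, *Ctsk*, *Mmp9* and *Itgb3* lie higher in all 4 RANKL libraries, *Nfatc1* and *Acp5* do not, and *Mmp9* is at 48.3 and 54.1 FPKM in WT against 23.7 and 24.7 FPKM in Jmjd6-/- stroma with RANKL.

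NFATc1 binds a short core, GGAAA on either strand. It was searched in promoter windows of 4 of the 10 genes, taken from the RefSeq promoter table (GRCm38.p6, 250 bases before to 50 bases after a start site). The other genes had no window in that table or were left out of the search. The 4 cover a gene that rose (*Ctsk*), one that did not (*Acp5*) and a pair at trace level (*Calcr* and *Oscar*). Each is printed 5′ to 3′ on the strand of its gene, with every GGAAA or TTTCC in capitals.
Ctsk, chr3:95498960-95499259, plus strand: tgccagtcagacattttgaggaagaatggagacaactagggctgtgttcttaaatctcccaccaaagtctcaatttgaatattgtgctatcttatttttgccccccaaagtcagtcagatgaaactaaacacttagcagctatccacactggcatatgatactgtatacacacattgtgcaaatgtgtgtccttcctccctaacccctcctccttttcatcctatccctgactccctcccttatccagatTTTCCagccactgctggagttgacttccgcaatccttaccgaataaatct
Acp5, chr9:22135697-22135996, minus strand: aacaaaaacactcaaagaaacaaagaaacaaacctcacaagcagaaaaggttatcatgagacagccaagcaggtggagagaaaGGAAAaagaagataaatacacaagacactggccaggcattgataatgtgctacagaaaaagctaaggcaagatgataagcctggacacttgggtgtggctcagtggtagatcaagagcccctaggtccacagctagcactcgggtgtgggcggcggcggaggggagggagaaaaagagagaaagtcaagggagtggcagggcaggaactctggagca
Calcr, chr6:3764664-3764963, minus strand: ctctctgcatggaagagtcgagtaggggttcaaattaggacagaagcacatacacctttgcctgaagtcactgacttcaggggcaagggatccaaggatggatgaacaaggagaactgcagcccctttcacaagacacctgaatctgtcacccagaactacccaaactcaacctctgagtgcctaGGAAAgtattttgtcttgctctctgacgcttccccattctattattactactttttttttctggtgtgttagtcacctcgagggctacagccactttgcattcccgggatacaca
Oscar, chr7:3616108-3616407, minus strand: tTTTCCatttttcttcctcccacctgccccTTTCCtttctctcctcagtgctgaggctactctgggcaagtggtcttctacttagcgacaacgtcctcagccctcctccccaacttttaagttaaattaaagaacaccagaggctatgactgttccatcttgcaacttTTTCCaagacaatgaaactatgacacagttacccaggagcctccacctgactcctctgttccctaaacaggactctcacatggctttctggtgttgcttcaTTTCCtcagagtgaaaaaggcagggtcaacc
The *Ctsk* window held 1 core, which begins at the start site itself, the *Acp5* window 1 core 167 bases before the start site, the *Calcr* window 1 core 65 bases before it, and the *Oscar* window 4. The core is short, and 61.3% of the 32851 promoter windows of 300 bases held at least 1. The PU.1 core, searched as GAGGAA on both strands and sharing letters with the NFAT core where the 2 overlap, occurred 2 times each in the *Ctsk* and *Oscar* windows and was not in the *Acp5* and *Calcr* windows, against 28.3% of all windows. Neither the AP-1 motif TGANTCA (7.81% of windows) nor the E-box CACGTG (7.15%) was found in the 4. These matches describe the letters of the windows and not binding. The start sites of the *Acp5* and *Calcr* windows are the 5′ ends of the deposited gene entries, and further windows of these genes are listed at other start sites. Those of the *Ctsk* and *Oscar* windows lie 76 and 24 bases upstream of the deposited 5′ ends.

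*Nfatc1* (XLOC_009494, chromosome 18, minus strand), the transcription factor at the centre of osteoclast differentiation, was already expressed without RANKL and did not pass the test. Without RANKL it had 14.0 FPKM in WT stroma and 11.9 FPKM in Jmjd6-/- stroma. With RANKL it had 12.0 and 15.2 FPKM in WT and 12.9 and 12.2 FPKM in Jmjd6-/- stroma. The groups overlapped, and every library lay within a narrow band. Its log2 change with RANKL was 0.01 (SE 0.12, 95% interval -0.28 to 0.30, adjusted p = 0.956 from limma). Without RANKL it was the most abundant of the 10 genes in both libraries, and with RANKL *Mmp9* was.

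The 3 surface receptors behaved differently from one another. *Itgb3* (XLOC_002985, chromosome 11, 104608000 to 104670471, plus strand of mm10) encodes the integrin beta 3 subunit, which pairs with alpha v to attach osteoclasts to bone and is also found on platelets. It had 1.31 FPKM in WT and 0.837 FPKM in Jmjd6-/- stroma without RANKL, 3.22 and 2.14 FPKM in WT with RANKL, and 2.13 and 2.21 FPKM in Jmjd6-/- with RANKL. All 4 RANKL libraries were higher than both unstimulated ones, and the log2 change was 1.11 (SE 0.22, 2.16-fold, adjusted p = 0.0179 from limma). That call was lost without WT unstimulated (adjusted p = 0.119), Jmjd6-/- unstimulated (0.167), Jmjd6-/- RANKL replicate 1 (0.077) or replicate 2 (0.072) and without the filter on low values (0.0931), while the direction stayed. Its partner *Itgav* did not pass the test. Of the 7 megakaryocyte and platelet genes, 0 rose and 1 (*Ppbp*) fell (adjusted p = 0.0473, and 0.169 to 0.347 without either unstimulated or either Jmjd6-/- RANKL library), and their summed level was 9.94 and 24.1 FPKM without RANKL and 10.9 to 23.7 FPKM with it.

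*Calcr* (XLOC_016498, chromosome 6, 3685720 to 3764713, minus strand) encodes the calcitonin receptor, through which calcitonin stops bone resorption. It had 0.0106 FPKM in WT and 0.0201 FPKM in Jmjd6-/- stroma without RANKL, about 1 fragment each. With RANKL it had 0.293 and 0.306 FPKM in WT and 0.0854 and 0.114 FPKM in Jmjd6-/- stroma. All 4 RANKL libraries were higher, and from about 2 fragments without RANKL to about 63 with it the ratio per depth was 16.1 (exact 95% interval 4.28 to 136, counting error only). In the fit across genes the log2 change was 1.29 (SE 0.38) with an adjusted p of 0.0694 from limma, which misses the threshold.

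*Oscar* (XLOC_018041, chromosome 7, 3609815 to 3616133, minus strand) encodes a collagen receptor that signals through the Fc receptor gamma chain and is induced by NFATc1 in osteoclasts. It had 0.199 and 0.285 FPKM without RANKL in WT and Jmjd6-/- stroma, 0.136 and 0.182 FPKM in WT with RANKL, and 0.0853 and 0.0385 FPKM in Jmjd6-/- with RANKL, the last of these under the limit of 3 fragments. The RANKL libraries were all lower than the unstimulated ones, at about 17 fragments in all without RANKL and about 16 with it. The log2 change was -0.74 (SE 0.38, 95% interval -1.64 to 0.16, adjusted p = 0.241 from limma).

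The genes for cell fusion were near the limit of detection. DC-STAMP and OC-STAMP are membrane proteins without which precursors stay mononuclear. *Dcstamp* (XLOC_006440, chromosome 15, 39745932 to 39760934, plus strand) was listed at 0 in both unstimulated libraries, which allows up to 0.0538 FPKM in WT and 0.109 FPKM in Jmjd6-/-. With RANKL it had 0.0894 and 0.219 FPKM in WT and 0.139 and 0.217 FPKM in Jmjd6-/- stroma, about 25 fragments in all. Set against 3 fragments over both unstimulated libraries together, and not 3 in each, its level per depth with RANKL was 4.27-fold. That value leaves out the counting error of the 25 fragments and is not a lower limit. The adjusted p was 0.0562 from limma, just over the threshold, and 0.0408 without WT RANKL replicate 1.

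*Ocstamp* (XLOC_012058, chromosome 2, 165395450 to 165400394, minus strand) did not follow it. It had 0.282 and 0.218 FPKM without RANKL in WT and Jmjd6-/- stroma, 0.153 and 0.224 FPKM in WT with RANKL and 0.0639 and 0.305 FPKM in Jmjd6-/- with RANKL. The groups overlapped, with both the lowest and the highest value in Jmjd6-/- RANKL libraries, and the log2 change was -0.36 (SE 0.42, 95% interval -1.37 to 0.65, adjusted p = 0.611 from limma).

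*Atp6v0d2* (XLOC_013915, chromosome 4, 19876838 to 19922566, minus strand) showed the largest fitted rise of the 10. It encodes the d2 subunit of the membrane sector of the vacuolar proton pump, the form that osteoclasts use to acidify the resorption pit and that takes part in precursor fusion. It had 1.38 FPKM in WT and 2.34 FPKM in Jmjd6-/- stroma without RANKL, 6.67 and 10.002 FPKM in WT with RANKL, and 13.2 and 15.2 FPKM in Jmjd6-/- with RANKL. All 4 RANKL libraries were higher, and the mean with RANKL was 6.06-fold the unstimulated level in each genotype. The fitted log2 change was 2.52 (SE 0.18, 5.72-fold, adjusted p = 0.000351 from limma), and it passed the test without each library in turn.

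Of the 3 resorption enzymes, *Ctsk* and *Mmp9* rose and *Acp5* did not. *Ctsk* (XLOC_012445, chromosome 3, 95499286 to 95509362, plus strand) encodes cathepsin K, the main collagen-digesting protease of osteoclasts, which fibroblasts can also make. It had 3.02 FPKM in WT and 2.63 FPKM in Jmjd6-/- stroma without RANKL, 6.23 and 8.29 FPKM in WT with RANKL and 6.01 and 8.17 FPKM in Jmjd6-/- with RANKL. All 4 RANKL libraries were higher, alike in the 2 genotypes. The log2 change was 1.30 (SE 0.18, 2.47-fold, adjusted p = 0.00545 from limma), and it missed the threshold without either the WT (0.0715) or the Jmjd6-/- (0.0718) unstimulated library and without the filter on low values (0.0611). The 8 mesenchymal genes summed to 768 FPKM in WT and 370 FPKM in Jmjd6-/- stroma without RANKL and to 464 to 841 FPKM with it. Of these, 1 (*Dcn*) rose (adjusted p = 0.0213, and 0.0601 to 0.12 without Jmjd6-/- unstimulated or either Jmjd6-/- RANKL library) and none fell, and their part in the *Ctsk* change was not tested.

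*Mmp9* (XLOC_011092, chromosome 2, 164948251 to 164955846, plus strand) encodes gelatinase B, a matrix protease of osteoclasts, macrophages and neutrophils. It had 13.8 FPKM in WT and 10.3 FPKM in Jmjd6-/- stroma without RANKL, 48.3 and 54.1 FPKM in WT with RANKL, and 23.7 and 24.7 FPKM in Jmjd6-/- with RANKL. Every RANKL library was higher than both unstimulated ones, 3.72-fold on average in WT and 2.35-fold in Jmjd6-/- stroma. The fitted log2 change was 1.56 (SE 0.15, 2.94-fold, adjusted p = 0.00132 from limma), and it passed without each library in turn. Of 8 tested neutrophil genes, 4 rose with RANKL (10.5% of all genes), 4 did not pass and none fell. The summed level of the 9 neutrophil genes found was 4.15 and 16.5 FPKM without RANKL and 90.5 to 174 FPKM with it. Most of it was *S100a8*, which epithelial cells can also make. Between genotypes with RANKL, 2 of the 8 tested neutrophil genes, *Mpo* and *Ngp*, were lower in Jmjd6-/- stroma and 1, *Ltf*, was higher. The granule genes *Mpo* and *Ngp* were at 0 in both unstimulated libraries, and their genotype calls were lost without some single RANKL libraries. With RANKL, *Mpo* had 1.20 and 1.40 FPKM in WT and 0.0967 and 0.133 FPKM in Jmjd6-/-. *Ngp* had 1.27 and 2.03 FPKM in WT and 0.189 and 0.103 FPKM in Jmjd6-/-. *Ltf* had 0.568 and 0.906 FPKM in WT and 4.76 and 3.89 FPKM in Jmjd6-/-. *Elane*, another granule gene, was at 0 in 5 of the 6 libraries. The part of such cells in the *Mmp9* change was not tested.

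*Acp5* (XLOC_020942, chromosome 9, 22126727 to 22135746, minus strand) encodes tartrate-resistant acid phosphatase, the enzyme stained to identify osteoclasts. It had 12.5 FPKM in WT and 9.04 FPKM in Jmjd6-/- stroma without RANKL, 7.73 and 11.3 FPKM in WT with RANKL and 9.16 and 14.6 FPKM in Jmjd6-/- with RANKL. Both WT libraries with RANKL were under the unstimulated WT library and both Jmjd6-/- libraries were over theirs. Over all 6 the groups overlapped, and the log2 change was -0.03 (SE 0.27, 95% interval -0.67 to 0.61, adjusted p = 0.950 from limma). Its exons share 685 bp with *6530413G14Rik* on the opposite strand. Library preparation as described keeps no strand, so reads of the 2 genes cannot be told apart there.

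**Figure D2:**
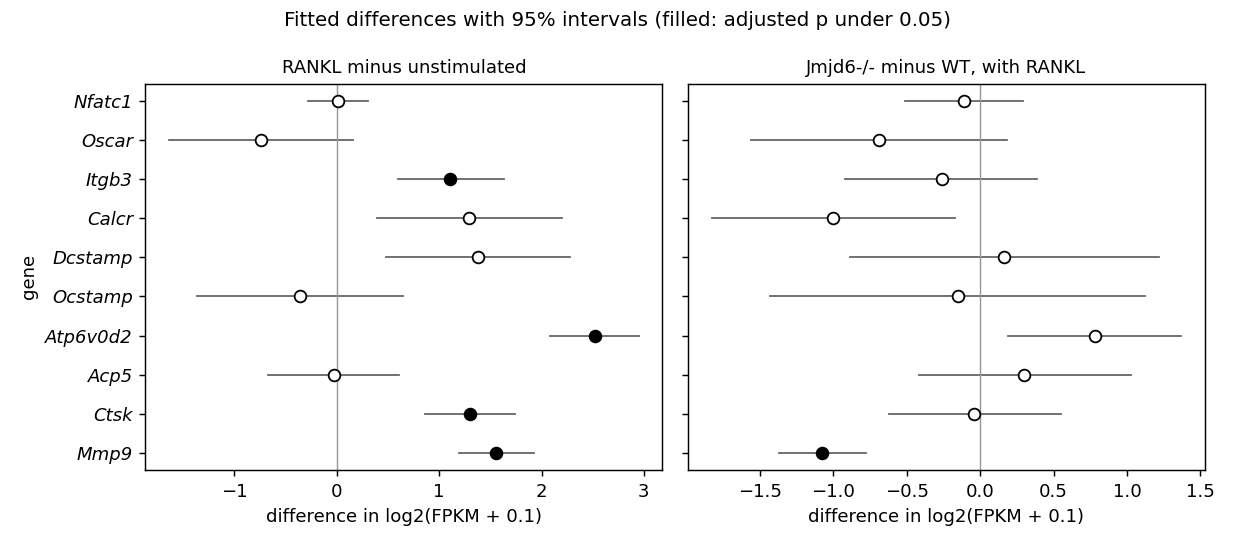
Fitted differences in log2(FPKM + 0.1) with 95% intervals (horizontal axes) for the 10 genes (vertical axis), for RANKL minus unstimulated over 4 and 2 libraries (left) and Jmjd6-/- minus WT with RANKL over 2 and 2 libraries (right). Filled points have an adjusted p under 0.05, and these are *Itgb3*, *Atp6v0d2*, *Ctsk* and *Mmp9* on the left and *Mmp9* alone on the right.

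The upstream pathway was also measured, beginning with the RANK axis itself. *Tnfrsf11a*, the RANKL receptor, had 1.84 and 2.41 FPKM without RANKL and 12.6 to 16.1 FPKM with it (log2 change 2.70, SE 0.14, adjusted p = 8.4e-05 from limma). *Tnfrsf11b*, the decoy receptor osteoprotegerin, had 0.0766 and 0.148 FPKM without RANKL and 26.8, 13.4, 19.1 and 17.2 FPKM with it (log2 change 6.48, SE 0.29, adjusted p = 6e-05). The gene of the ligand, *Tnfsf11*, rose from 0.0474 and 0.0599 FPKM to 0.333 to 0.640 FPKM (log2 change 1.93, adjusted p = 0.00966). It passed the filter only through the RANKL libraries, so its rise is partly fixed by the filter. RANK and osteoprotegerin are known to be made by mTECs, as well as by osteoclast precursors and stromal cells respectively. Of 11 mTEC genes, 7 rose (10.5% of all genes) and none fell (4.11%). Which cells made the *Tnfrsf11a* and *Tnfrsf11b* transcripts was not tested.

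Of 20 genes of RANK signalling, 19 were tested, of which 7 rose (10.5% of all genes), none fell (4.11%) and 12 did not pass. Beside the 3 just named, those that rose were the NF-kB genes *Nfkb2*, *Relb* and *Nfkbia* and the AP-1 gene *Junb*. *Nfkbia*, the inhibitor that NF-kB induces, was at 70.4 and 56.0 FPKM without RANKL and 129 to 151 FPKM with it (log2 change 1.14, adjusted p = 0.00125). *Junb* was at 25.1 and 26.0 FPKM without RANKL and 39.2 to 80.9 FPKM with it (log2 change 1.21, adjusted p = 0.0124). The c-Fos gene *Fos*, which osteoclast formation needs, and *Traf6*, the RANK adaptor, did not pass. The median log2 change of the 19 was 0.20. Both this median and the count of 7 include *Tnfsf11*, which passed the filter only through the RANKL libraries. Between 4 and 9 rose when 1 library was left out in turn. *Tnfrsf11a*, *Tnfrsf11b*, *Nfkb2* and *Nfkbia* kept their calls each time, while *Tnfsf11*, *Relb* and *Junb* lost theirs without either unstimulated library (adjusted p = 0.0619 to 0.182).

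The co-receptor pathway showed 2 rises among 11 tested genes of 12, *Trem2* and *Siglec15*, and no fall, with a median log2 change of 0.07, where 10.5% of all genes rose. *Siglec15* passed the filter only through the RANKL libraries. These are myeloid receptors that couple to the adaptor DAP12, encoded by *Tyrobp*. *Siglec15* was listed at 0 in both unstimulated libraries and had 0.538 and 0.566 FPKM in WT and 0.416 and 0.190 FPKM in Jmjd6-/- stroma with RANKL (adjusted p = 0.00844 from limma, 0.111 without WT unstimulated). *Trem2* had 6.88 and 4.50 FPKM without RANKL and 8.96 to 17.4 FPKM with it (log2 change 1.09, adjusted p = 0.0379, and 0.101 to 0.298 without either unstimulated or either Jmjd6-/- RANKL library). *Tyrobp* itself was at 87.6 and 69.7 FPKM without RANKL and 54.5 to 92.9 FPKM with it and did not pass (adjusted p = 0.366).

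Of 18 further genes of the resorption machinery, 2 rose, none fell and 16 did not pass, a share near the 10.5% of all genes that rose, and the median log2 change was 0.04. *Adam8*, a metalloprotease of activated myeloid cells and osteoclasts, rose from 6.05 and 7.89 FPKM to 21.9 and 19.0 FPKM in WT and 31.9 and 29.3 FPKM in Jmjd6-/- stroma (log2 change 1.84, SE 0.11, adjusted p = 0.000144), without each library in turn too. *Src*, the kinase that organises the ruffled border, had a log2 change of 0.56 (adjusted p = 0.0119), lost without either unstimulated or either Jmjd6-/- RANKL library (0.0597 to 0.147). *Tcirg1*, the a3 subunit of the osteoclast proton pump, was at 40.7 and 30.8 FPKM without RANKL and 35.5 to 49.3 FPKM with it (log2 change 0.22, adjusted p = 0.106). So *Atp6v0d2* rose while 0 of the 7 other pump subunits on the list did. Of 6 genes that restrain osteoclast formation, among them *Irf8* and *Bcl6*, 0 rose and 0 fell, with a median log2 change of 0.04.

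Genes of the myeloid precursors moved in both directions. Of 20, 19 were tested and 11 did not pass. Among the 19, 3 rose (*Cd14*, *Fcgr3* and *Mrc1*, beside 10.5% of all genes). Another 5 fell (*Csf1r*, *Ptprc*, *Adgre1*, *Mertk* and *Timd4*, beside 4.11% of all genes). The median log2 change of the 19 was -0.27, and the summed level of the list was 852 and 791 FPKM without RANKL and 702 to 959 FPKM with it. *Mrc1*, the macrophage mannose receptor, rose from 4.93 and 4.50 FPKM to 10.8 to 15.8 FPKM (log2 change 1.48, adjusted p = 0.000563), also without each library in turn. *Cd14*, a co-receptor for bacterial products, was at 1.40 and 1.47 FPKM without RANKL and 2.37 to 3.57 FPKM with it (adjusted p = 0.0313). *Adgre1*, which encodes the macrophage antigen F4/80, fell from 34.7 and 31.1 FPKM to 12.7 to 21.8 FPKM (log2 change -1.0, adjusted p = 0.0159). *Ptprc*, the pan-leukocyte antigen CD45, fell from 6.81 and 6.74 FPKM to 2.89 to 3.56 FPKM (log2 change -1.0, adjusted p = 0.00547).

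*Timd4*, a phosphatidylserine receptor of resident macrophages, fell from 6.78 and 8.82 FPKM to 0.450 to 2.32 FPKM (log2 change -2.94, adjusted p = 0.0123). *Csf1r* fell from 13.7 and 14.8 FPKM to 7.58 to 10.5 FPKM (log2 change -0.62, adjusted p = 0.0379). All 4 RANKL libraries were lower than both unstimulated ones for each of these. *Spi1* and *Cd68* did not pass (log2 changes -0.29 and 0.28). *Cd163*, another macrophage marker, was at 0 in 5 of 6 libraries. Without 1 library in turn, between 1 and 4 of the list rose and between 0 and 10 fell. The calls of *Ptprc*, *Adgre1* and *Timd4* were lost without either unstimulated library (0.0651 to 0.161), and those of *Csf1r*, *Mertk*, *Cd14* and *Fcgr3* without these or without either Jmjd6-/- RANKL library (0.0647 to 0.312).

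**Figure D3:**
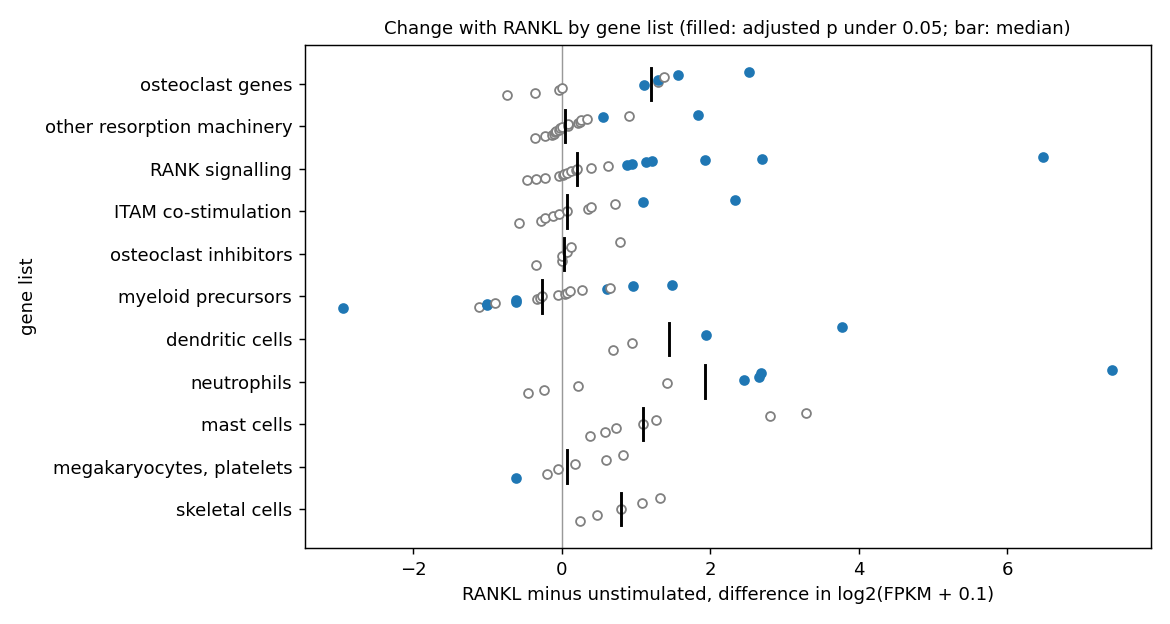
Difference in log2(FPKM + 0.1) between RANKL and unstimulated libraries (horizontal axis) for each tested gene of the osteoclast genes and 10 other gene lists (vertical axis). Each point is 1 gene, filled where the adjusted p is under 0.05, and black bars are list medians. The median is 1.2 for the 10 osteoclast genes and 0.56 without the 2 that passed the filter only through the RANKL libraries. It is 0.04 for the other resorption machinery and -0.27 for the myeloid precursors.

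Other blood cells were checked by their own lists, beside 10.5% of all genes that rose and 4.11% that fell. Of 8 dendritic cell genes, 4 were tested and *Itgax* and *Ccr7* rose. *Ccr7*, a chemokine receptor of migrating dendritic cells, had 0.209 and 0.180 FPKM without RANKL and 3.64 to 4.56 FPKM with it (log2 change 3.78, SE 0.18, adjusted p = 7.1e-05 from limma), and it passed without each library in turn. *Itgax* is also made by other myeloid cells, and it had 0.401 and 1.31 FPKM without RANKL and 1.43 to 6.49 FPKM with it (adjusted p = 0.0059 from limma, 0.0919 without WT unstimulated and 0.0625 without Jmjd6-/- unstimulated). *Zbtb46* and *Flt3* were tested and did not pass, and all 4 RANKL libraries lay above both unstimulated ones for each. *Flt3* passed the filter only through the RANKL libraries. The dendritic genes *Xcr1*, *Clec9a*, *Cd209a* and *Siglech* were all under the filter, and *Siglech* was at 0 in all libraries. Of 8 tested neutrophil genes, *S100a8*, *S100a9*, *Ngp* and *Mpo* rose and none fell. *Ngp* and *Mpo* were at 0 in both unstimulated libraries and passed the filter only through RANKL libraries, mostly those of WT. *S100a8* had 0.586 and 0.268 FPKM without RANKL and 98.2 and 141 FPKM in WT and 58.5 and 65.5 FPKM in Jmjd6-/- stroma with RANKL, and it passed without each library in turn. *S100a9* (adjusted p = 0.154), *Ngp* (0.259) and *Mpo* (0.233) did not pass without WT unstimulated, and *Ngp* and *Mpo* were also lost without some RANKL libraries (0.0503 to 0.0855). Of 7 tested mast cell genes 0 passed, and the 10 listed summed to 4.39 and 2.06 FPKM without RANKL and to 24.6 and 13.4 FPKM in WT and 5.06 and 4.29 FPKM in Jmjd6-/- stroma with it. Of 3 tested T cell genes of 8, 1 (*Lck*) rose and none fell, and the 8 summed to at most 3.52 FPKM in any library. *Lck* had 0.610 and 0.390 FPKM without RANKL and 0.728 to 1.91 FPKM with it (log2 change 1.12, adjusted p = 0.0226 from limma, 0.258 without WT unstimulated and 0.0686 and 0.0782 without the Jmjd6-/- RANKL replicates). *Cd3e*, *Cd3g* and *Cd8a* were under the filter. Of *Csf1* and *Il34*, the ligands of the M-CSF receptor, *Csf1* had a log2 change of 0.54 (adjusted p = 0.0328, and 0.0741 to 0.305 without either unstimulated or either Jmjd6-/- RANKL library) and *Il34* did not pass.

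**Figure D4:**
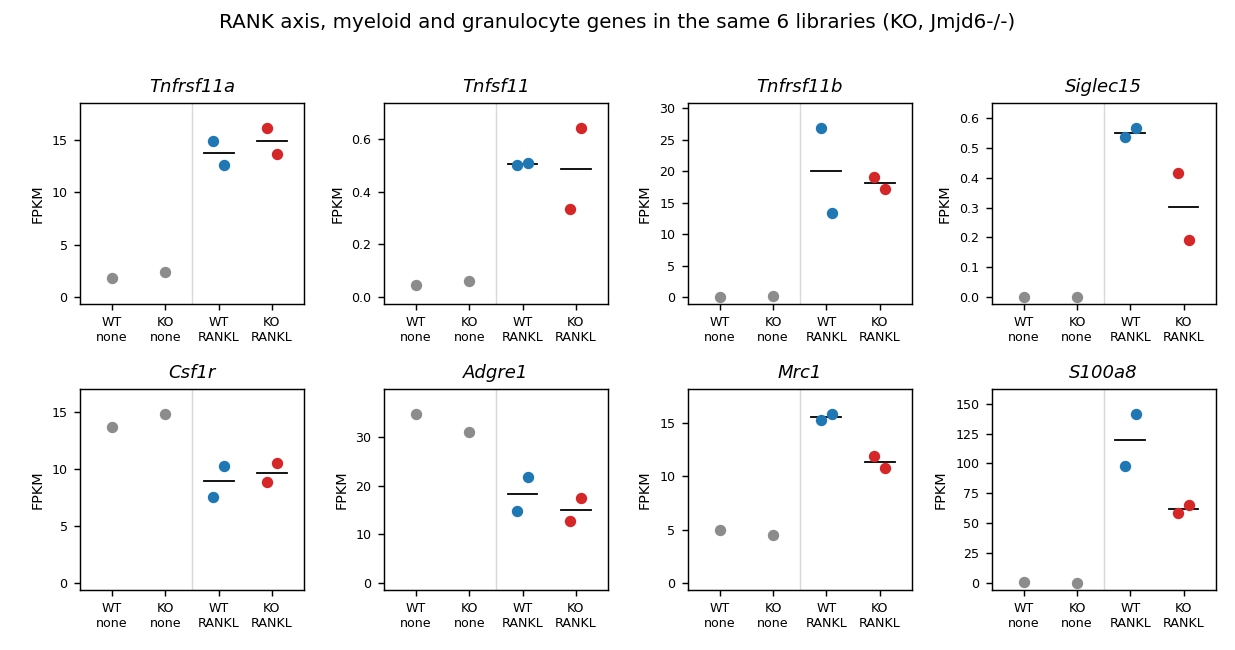
FPKM (vertical axis, linear, from 0) of 8 genes of the RANK axis, the co-receptors, macrophages and granulocytes in the 6 libraries (horizontal axis, genotype and stimulation). Each point is 1 library, KO stands for Jmjd6-/-, and bars are means of 2 RANKL libraries. *Tnfrsf11b* is under 0.15 FPKM without RANKL and at 13.4 FPKM or more with it, while *Adgre1* and *Csf1r* lie lower in all 4 RANKL libraries.

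The genotypes were compared within RANKL-stimulated stroma. Of the 10 osteoclast genes 1, *Mmp9*, was lower in Jmjd6-/- stroma (1.82% of all genes tested were lower) and none was higher (0.516% were higher). *Mmp9* averaged 51.2 ± 4.10 FPKM (SD, n = 2) in WT and 24.2 ± 0.658 FPKM (SD, n = 2) in Jmjd6-/- stroma, and both Jmjd6-/- libraries were lower than both WT ones. The log2 difference was -1.08 (SE 0.12, 0.475-fold, adjusted p = 0.0280 from limma). It was lost without Jmjd6-/- replicate 1 (adjusted p = 0.127) or replicate 2 (0.129) and without the filter (0.15), with log2 differences of -1.05, -1.10 and -1.08. Without RANKL, where there was 1 library each and no test, *Mmp9* in Jmjd6-/- was 0.748 times the WT level.

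With RANKL, the 2 Jmjd6-/- libraries lay under both WT libraries for 3 of the 10 genes, *Mmp9*, *Calcr* and *Oscar* (26.2% of all genes), and above them for 1, *Atp6v0d2* (24.5%). *Calcr* had a mean of 0.299 ± 0.00981 FPKM in WT and 0.0999 ± 0.0205 FPKM in Jmjd6-/- stroma (SD, n = 2 each), with a log2 difference of -1.0 (95% interval -1.83 to -0.17, adjusted p = 0.192 from limma). *Atp6v0d2* had 8.34 ± 2.36 FPKM in WT and 14.2 ± 1.40 FPKM in Jmjd6-/- stroma (SD, n = 2 each), with a log2 difference of 0.78 (95% interval 0.19 to 1.37, adjusted p = 0.160 from limma). It stood 1.70 times higher in Jmjd6-/- stroma both with RANKL and without. The other 7 had log2 differences from -0.69 (*Oscar*) to 0.30 (*Acp5*), none past the test, and the median over the 10 was -0.13 against 0.01 over all genes.

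Lists of other cells moved with genotype under RANKL, where 1.82% of all genes tested were lower and 0.516% higher. Of 7 tested mast cell genes 4 were lower in Jmjd6-/- stroma, and of 8 tested neutrophil genes 2 were lower and 1 higher. Of 6 tested endothelial genes 2, of 8 tested mesenchymal genes 2 and of 5 tested skeletal genes 2 (*Ibsp* and *Alpl*) were lower. The mast cell genes *Mcpt1*, *Mcpt2*, *Mcpt4* and *Cma1*, and *Mpo*, *Ngp* and *Ibsp*, were at 0.201 FPKM or less in the Jmjd6-/- RANKL libraries. They passed the filter mainly through WT libraries, so these counts are partly fixed by the filter. The 8 skeletal genes summed to 1.91 FPKM in WT and 1.96 FPKM in Jmjd6-/- stroma without RANKL. With RANKL they summed to 9.07 and 8.09 FPKM in WT and 2.49 and 2.45 FPKM in Jmjd6-/- stroma. Most of the WT sum with RANKL was *Alpl*, at 7.24 and 5.86 FPKM. Of 6 tested megakaryocyte and platelet genes 1 (*Ppbp*) was higher in Jmjd6-/- stroma and none was lower. With RANKL *Ppbp* had 0.662 and 0.631 FPKM in WT and 5.72 and 6.45 FPKM in Jmjd6-/- stroma. None of the 19 myeloid precursor genes or of the RANK signalling genes tested differed between genotypes by the same test, and the myeloid median was -0.24. The part of these cells in the *Mmp9* difference was not tested.

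Whether RANKL acted differently in the 2 genotypes was tested as an interaction. None of the 10 genes passed (0.0% of all genes tested passed by limma), and at an unadjusted p under 0.05 it was 1 of the 10, *Mmp9*, and 664 of all genes. For *Mmp9* the log2 response in Jmjd6-/- less that in WT was -0.66 (SE 0.21, 95% interval -1.18 to -0.14, unadjusted p = 0.0209 from limma, adjusted p = 1.0). *Acp5*, which lay lower with RANKL in WT and higher in Jmjd6-/- stroma, had a difference of 0.77 (95% interval -0.49 to 2.03). For *Ctsk*, which rose 2.40-fold in WT and 2.70-fold in Jmjd6-/- stroma, it was 0.16 (95% interval -0.86 to 1.18). With 1 unstimulated library a genotype these intervals are wide.

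As a description of patterns over the 6 libraries, the genes most like *Mmp9* by Pearson's r of log2(FPKM + 0.1), among 12581 genes averaging 1 FPKM or more, were *Apoa1* (r = 0.9978), *Ssr2* (0.9969) and *Reg3g* (0.9951). *Apoa1*, which encodes the main apolipoprotein of high-density lipoprotein, was at 0.132 FPKM in WT and at 0 in Jmjd6-/- stroma without RANKL, and at 6.35 and 8.94 FPKM in WT and 1.01 and 0.761 FPKM in Jmjd6-/- stroma with it. Those most like *Atp6v0d2* were *Slco1a5* (0.9981), *Defb6* (0.9979) and *Rangap1* (0.9966), and *Defb6*, an epithelial defensin, had 0.543 and 1.99 FPKM without RANKL, 25.0 and 51.2 FPKM in WT and 113 and 108 FPKM in Jmjd6-/- stroma. The 6 points share their libraries and fall into stimulated and unstimulated sets, and 8 genes for *Mmp9* and 14 for *Atp6v0d2* had an r over 0.99.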

How the data were processed

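Poly-A RNA had been sequenced in paired-end mode. The authors mapped reads to mm10 with TopHat2 2.0.10 and computed FPKM with Cufflinks 2.1.1, run with a strand-specific setting although the kit description names no step that keeps strand. The deposited FPKM values were used as given. Depth was estimated from the spacing of values under 0.15 FPKM and transcript length less 150 bp, so fragment numbers and limits are approximate and cover counting error only. With limma 3.58.1 (R 4.3.3), log2(FPKM + 0.1) was fitted for the genes averaging 0.1 FPKM or more, letting variance depend on mean level, and p-values were adjusted by Benjamini-Hochberg and called at 0.05. A fold change on this scale understates that of low genes. RANKL was tested across genotypes in an additive model, and genotype and interaction in a model with 4 group means. Intervals are 95% and unadjusted.

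The 10 genes and the 16 lists (161 of 163 genes found, all but *Ly6g* and *Ccl21a*) were chosen with earlier results of these data known, and 1 further listed gene is not reported here. For each list, values were given for at most 5 genes past the test, in order of the size of their change, and for preset defining genes. Of the mTEC genes only *Aire* is given. Patterns most alike were sought for the most abundant gene and the one with the largest change. Genes named without values, or for genotype, overlap or absence, were chosen after their values were seen. Alternatives varied the added constant, filter, trend, scaling, design and libraries. Scripts were tested on simulated data.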

Additional observations from a re-analysis of the deposited data

How the results depend on the processing

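Of 282 repeats of the log2 changes of the 10 osteoclast genes (RANKL and genotype), 244 kept direction and side of the threshold, 12 lost a call, 9 gained one and 17 changed sign, all of the last in differences that were not called. For RANKL, the count of rising genes (4) was 2 without the filter (*Ctsk* and *Itgb3* lost) and 2 to 5 without 1 library in turn, and no gene fell under any alternative. The count of rising genes was 6 when only genes at 0 in all libraries were dropped, an alternative chosen after seeing the data. *Dcstamp* and *Calcr* passed there (adjusted p = 0.0289 and 0.0432 from limma), as *Ctsk* and *Itgb3* did. *Dcstamp* and *Calcr* also passed with 0.01 added in place of 0.1 (adjusted p = 0.0163 and 0.0404) and without a trend (0.0308 and 0.0454). Over all alternatives the adjusted p ran from 0.0163 to 0.248 for *Dcstamp* and from 0.0404 to 0.490 for *Calcr*. The median change of the 10 (1.2) was 0.23 with 1 added, which shrinks low genes by construction. All genes changed with RANKL (2329) were 1087 without the filter and 677 to 3643 without 1 library. *Nfatc1* had -0.01 with equal totals and -0.05 to 0.09 over all alternatives, and *Acp5* 0.00 by median ratio, and -0.42 to 0.35 over all alternatives. None of these passed. For genotype, the count of 1 (*Mmp9*) was 0 without the filter, also 0 in an alternative chosen after seeing the data that dropped only genes at 0 in all libraries, and 0 to 1 without 1 library. All genes differing (372) were 241 with 0.01 added, 2 without the filter, 231 with a filter at 1 FPKM, 0 in the added alternative and 88 to 3991 without 1 library. Uncalled genotype differences that changed sign without 1 library ran from -0.28 to 0.06 for *Nfatc1*, -0.55 to 0.02 for *Itgb3*, -0.21 to 0.54 for *Dcstamp*, -0.81 to 0.50 for *Ocstamp*, -0.03 to 0.64 for *Acp5* and -0.25 to 0.18 for *Ctsk*. Genes differing in the response to RANKL (0) were 176 without the filter and 0 to 5 without 1 library. Without the filter more genes entered each fit, among them 3249 at 0 in all libraries. With only these 3249 dropped, 2165 of all genes changed with RANKL and 0 differed in response. Without 1 library fewer samples entered. The cause of the shifts was not tested further.

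The replicate numbers of the RANKL libraries share only a number: the deviations of same-numbered WT and Jmjd6-/- libraries had r = -0.0778 over 12587 genes. With the replicate block, 2 of the 10 genes differed between genotypes (*Mmp9* and *Atp6v0d2*, adjusted p = 0.031 for the second), 1477 of all genes did, and 94 differed in response. Of 521 repeats of the RANKL changes of other named genes, 418 kept direction and call, 99 lost a call, 4 gained one and 0 changed sign. Depth limits *Oscar*, *Calcr*, *Dcstamp* and *Ocstamp*, with 0 to about 30.1 fragments a library.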
